A study of Homo sapiens with 12 samples.

Results

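Wild-type HEK293 cells, a human embryonic kidney line used widely for making proteins and viral vectors, were compared between 2 ways of growing them. The wild-type adherent group (3 libraries) was grown in T75 flasks in DMEM with FBS, and the wild-type suspension group (3 libraries) in EX-CELL 293 serum-free medium shaken at 120 rpm. The members are these 6 libraries of the 12 in the series, chosen by their titles, and the readout was polyA RNA counted per gene. Both cultures were held at 37 °C in 5% CO2 and collected by centrifugation after 5 passages, and the adherent cells alone were trypsinized first. Attachment, serum, medium, shaking and trypsin therefore differ at once between the groups, and their parts in any difference cannot be told apart. The other 6 libraries are an EXT1 knockdown of the same line in the same 2 cultures, EXT1 coding for an enzyme that extends heparan sulfate chains. They enter the fit to estimate the spread and are set beside the wild type at the end. The labels do not say whether the 3 libraries of a group came from separate cultures, and p-values therefore cover the spread between libraries alone, which may be technical.

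HEK293 cells attach weakly, and lines for bioproduction are adapted to serum-free medium so that they can be grown as single cells or small clumps in shaken vessels. Serum carries growth factors, bone morphogenetic proteins (BMPs), lipoprotein cholesterol and matrix proteins. A cell obtains cholesterol by taking up lipoproteins or by making it. A flat surface gives cells the spread shape in which stress fibres end in focal adhesions.

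The wild-type libraries held between 14.4 and 21.4 M reads assigned to genes. Values are given as reads per 1000000 (CPM) after TMM scaling, a scaling that sets the bulk of genes level between libraries, and differences as log2 fold changes of suspension over adherent culture with their standard error (SE). The adherent libraries spread more than the suspension ones: between pairs of replicates, the chi-square of the counts per degree of freedom ran from 10.6 to 23.6 in adherent and from 2.82 to 6.06 in suspension culture, where 1 would be counting error alone. For each list below in which most of the measured members were called in 1 direction, the median kept its sign when any 1 wild-type library was left out. EXT1 was measured at 53.2, 53.1 and 51.8 CPM in the adherent and at 49.5, 54.6 and 47.9 CPM in the suspension libraries (log2 fold change -0.056, SE 0.0796, adjusted p = 0.57). In the knockdown libraries its mean was 12.1 CPM in adherent and 14.6 CPM in suspension culture.

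The cells of both cultures carried the markers of the line. All but 1 of the 12 HEK293 markers were measured, including vimentin (VIM, 256 CPM in adherent and 370.2 CPM in suspension), N-cadherin (CDH2, 183 and 157 CPM) and neurofilament light chain (NEFL, 107 and 163 CPM). Markers of white blood cells summed to between 1.93 and 3.50 CPM over the 10 listed genes in any library, and those of hepatocytes to at most 0.644 CPM over 8, of which SERPINA1 had no read. The 14 fibroblast markers summed to between 64.8 and 74.5 CPM in adherent and between 147 and 157 CPM in suspension libraries, of which fibulin 1 (FBLN1) made up between 20.7 and 23.5 and between 85.5 and 94.3 CPM. The 14 epithelial markers summed to between 395 and 476 CPM in adherent and between 504 and 550 CPM in suspension. Their most abundant member, a keratin with a mean of 235 CPM over the 6 libraries, is also among the HEK293 markers. The 8 endothelial markers summed to between 11.4 and 19.1 CPM and between 33.9 and 35.5 CPM, most of it EGFL7. The part of these markers in the matrix and adhesion genes that rose was not tested. In bulk RNA, more cells of a kind and more RNA per cell cannot be told apart.

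The culture changed the level of most genes tested. Of 17115 genes tested, 9534 (55.7%) passed an adjusted p of 0.05 in edgeR's quasi-likelihood test with Benjamini-Hochberg adjustment, of which 4735 (27.7%) were higher and 4799 (28.0%) lower in suspension. The large changes were mostly rises: 1799 genes (10.5%) were at least 2-fold higher and 653 (3.82%) at least 2-fold lower. Falls outnumbered rises among abundant genes, and rises outnumbered falls among those of lower level. Of 2369 genes with a mean of at least 100 CPM, 392 rose and 1198 fell, with 31 and 18 of them past 2-fold. Of 6120 genes between 20 and 100 CPM, 1582 rose and 2244 fell, with 226 and 75 past 2-fold. Of 3175 genes between 5 and 20 CPM, 1292 rose and 620 fell, with 434 and 97 past 2-fold. The 3 suspension libraries lay above all 3 adherent ones in 29.8% of the genes tested and below them in 29.1%. The counts of the gene lists below are read against these shares.

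**Figure D1:**
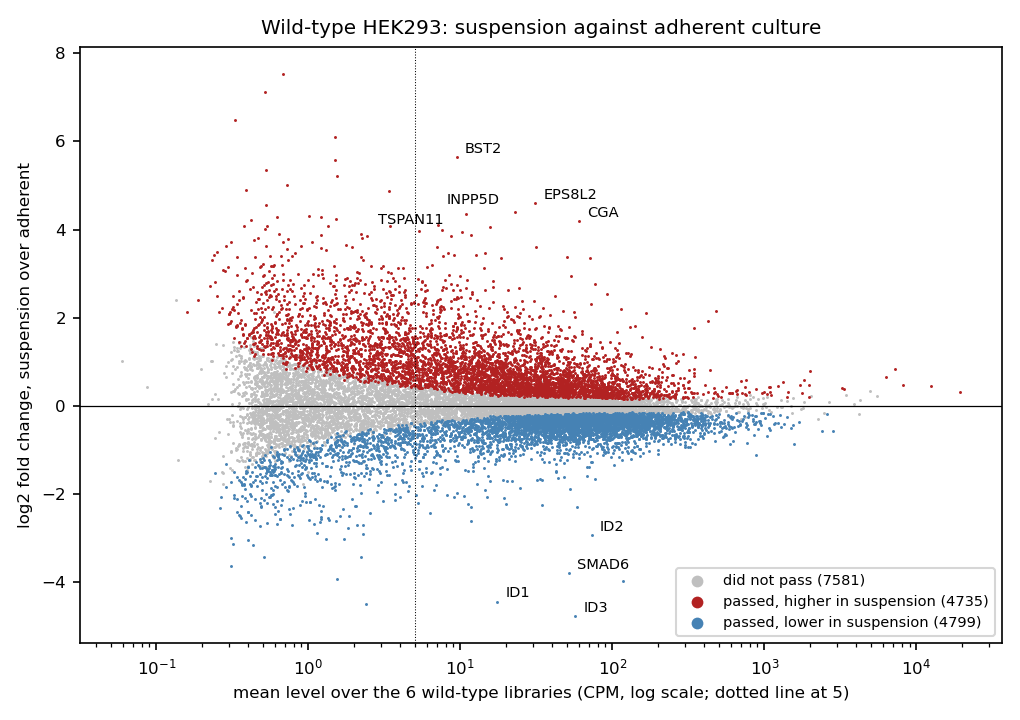
Log2 fold change of suspension over adherent culture (y axis) against mean level in CPM over the 6 wild-type libraries (x axis, log scale) for each of the 17115 genes tested. Red points passed the test as higher, blue as lower and grey did not pass; named genes are those with the largest changes. Of the 1799 genes called at least 2-fold higher, BST2 stands highest among those with a mean of at least 5 CPM, and the 3 lowest protein-coding genes above that level are ID3, ID1 and SMAD6.

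Among protein-coding genes with a mean of at least 5 CPM, the steepest falls were in genes that BMP receptors switch on. BMPs signal through receptor-activated SMAD proteins, which in many cell types raise the ID genes, whose products block basic helix-loop-helix transcription factors, and the inhibitory SMADs that damp the same pathway. ID3 (chr1:23557918-23559794 on GRCh38) was measured at 111, 79.9 and 137 CPM in the adherent libraries and at 4.20, 4.51 and 3.11 CPM in suspension culture (log2 fold change -4.78, SE 0.180, adjusted p = 1.6e-13). ID1 went from 35.4, 28.9 and 35.5 to 1.68, 1.35 and 1.52 CPM (log2 fold change -4.45, SE 0.164, adjusted p = 1.3e-13). ID2 went from 147, 117 and 124 to 14.4, 18.6 and 17.5 CPM (log2 fold change -2.94, SE 0.101, adjusted p = 4.9e-14). In each of these 3 genes every adherent library lay far above every suspension library. The fourth family member, ID4, fell less, from 148 ± 6.79 to 57.7 ± 2.58 CPM (mean ± SD, n = 3, log2 fold change -1.36, SE 0.0704, adjusted p = 1.5e-11). The inhibitory SMAD6 went from 98.3, 80.7 and 109 to 6.27, 7.38 and 7.12 CPM (log2 fold change -3.80, SE 0.115, adjusted p = 1.2e-14). SMAD7, which also blocks TGF-beta receptors, went from 73.4, 53.03 and 73.3 to 21.96, 22.2 and 19.6 CPM (log2 fold change -1.64, SE 0.108, adjusted p = 3.7e-10).

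Other parts of this pathway moved in both directions. Of 29 measured TGF-beta and BMP genes, 12 fell and 9 rose, with a median log2 fold change of 0.061 beside -0.02 over all genes tested. Besides the genes above, the fallers included the corepressor SKIL (-1.50 ± 0.1002, log2 fold change ± SE), the decoy receptor BAMBI (-0.78 ± 0.105), the BMP antagonist noggin (NOG, -1.12 ± 0.208), the ligand BMP2 (-0.70 ± 0.0829) and SMAD9 (-0.71 ± 0.0994). Among the genes that rose, gremlin (GREM1), a secreted BMP antagonist, went from 2.12, 4.09 and 2.98 to 14.3, 14.6 and 14.3 CPM (log2 fold change 2.23, SE 0.174, adjusted p = 3.9e-09). The ligands TGFB1 and BMP7 rose by 0.96 and 0.65 on the log2 scale.

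**Figure D2:**
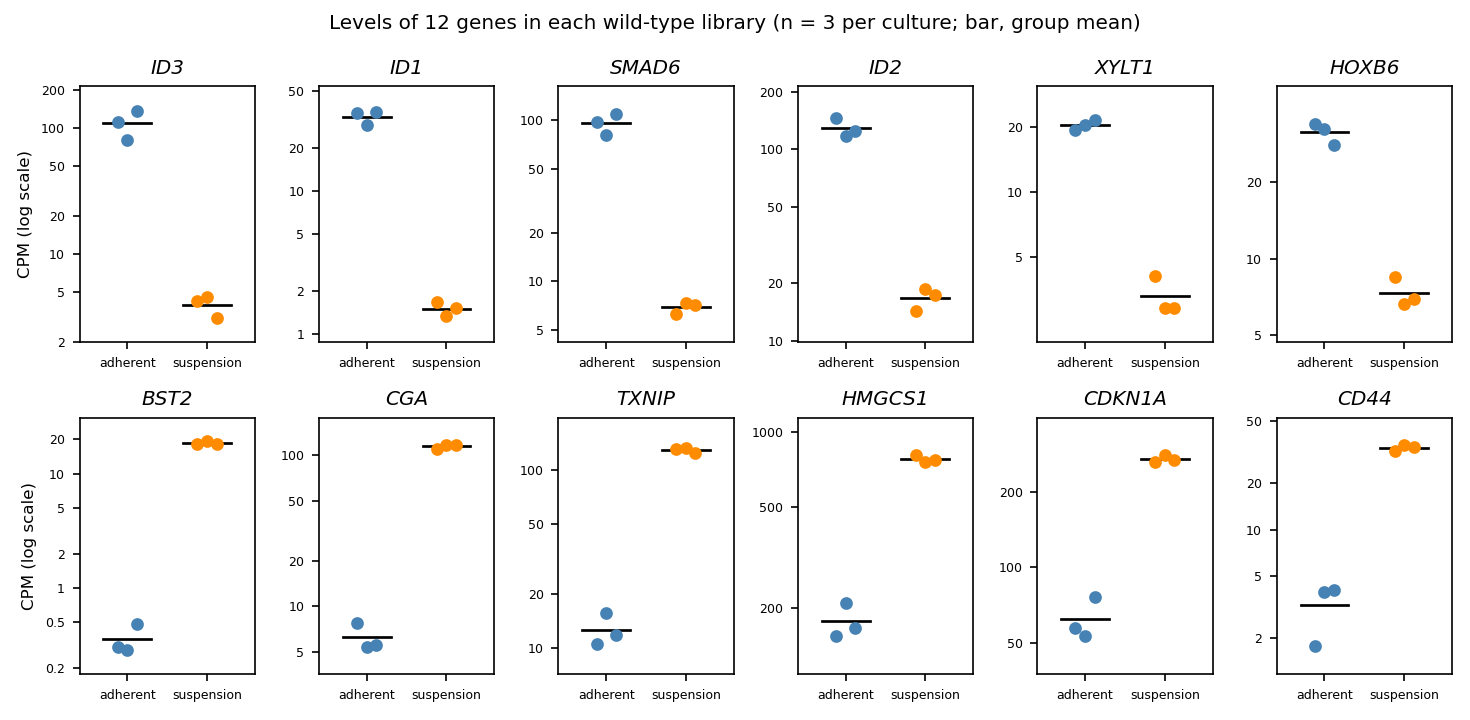
CPM (y axes, log scale) of 12 genes in each of the 6 wild-type libraries, adherent in blue and suspension in orange, with a bar at the group mean. In each panel the 3 points of 1 culture lie apart from the 3 of the other: ID3, ID1, SMAD6, ID2, XYLT1 and HOXB6 were lower and BST2, CGA, TXNIP, HMGCS1, CDKN1A and CD44 higher in suspension.

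Genes of the HOX clusters, the transcription factors that set position along the body axis and that kidney cells keep expressing, fell together. All 39 are in the table, and 35 were measured: 27 fell, 2 rose and 6 did not pass the test, with a median log2 fold change of -0.996, and 17 of the falls were at least 2-fold. The falls were found in all 4 clusters, with 9 of 11 measured genes lower in cluster A on chromosome 7, 7 of 9 in cluster B on chromosome 17, 5 of 7 in cluster C on chromosome 12 and 6 of 8 in cluster D on chromosome 2. HOXB6 went from 33.9, 32.4 and 27.99 to 8.46, 6.61 and 6.98 CPM (log2 fold change -2.09, SE 0.125, adjusted p = 1.0e-10). HOXB5 went from 15.9, 14.1 and 15.7 to 4.31, 3.45 and 3.80 CPM (log2 fold change -1.98, SE 0.137, adjusted p = 7.5e-10). HOXB8 (-1.83 ± 0.181, log2 fold change ± SE) was among the largest falls of all transcription factors, and HOXA9 went from 70.0 ± 5.17 to 39.8 ± 4.17 CPM (-0.81 ± 0.0866). The 2 that rose were HOXC10 (0.60 ± 0.162) and HOXD8 (0.40 ± 0.111), and HOXA4, HOXA7, HOXB4, HOXB13, HOXC11 and HOXD4 were between -0.19 and 0.20. The antisense transcripts HOXA-AS3 (-2.44 ± 0.184) and HOXB-AS3 (-2.05 ± 0.185) fell as well; as the strand setting of the counting is not given, their reads and those of overlapping HOX exons cannot be told apart. The 4 chromosomes did not shift as a whole in wild type: their medians over genes with a mean of at least 5 CPM were -0.035, -0.12, -0.073 and -0.061.

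Other transcription factors moved both ways. Besides the ID, SMAD and HOX genes, the largest falls among factors with a mean of at least 5 CPM were in RFX6 (-2.02 ± 0.155), known from endocrine pancreas, and in GATA2 (-1.87 ± 0.109), a regulator of blood and urogenital development, which went from 38.4, 32.4 and 44.8 to 11.1, 10.01 and 10.5 CPM. The largest rises included those of IRF5 (2.96 ± 0.161), the NF-kB subunit RELB (2.40 ± 0.171), EBF4 (2.11 ± 0.117) and ETV4 (2.05 ± 0.0815), followed by EGR1, MEIS3 (2.02 ± 0.140), the interleukin 4 signal carrier STAT6 (1.83 ± 0.130), FOSL1 and CARF (1.59 ± 0.182). By family, 256 of 555 measured C2H2 zinc finger genes were lower and 73 higher, with a median of -0.267. Chromosome 19, where zinc finger genes also lie, had a median of -0.225 over its 801 genes with a mean of at least 5 CPM. Its part in the fall of the family was not tested. Of 68 basic helix-loop-helix genes, the family that ID proteins bind, 25 were higher and 23 lower.

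Interferon-stimulated genes, which carry the antiviral defence of a cell, were more often higher than lower in suspension. Of 34 measured members, 20 rose, 1 fell and 13 did not pass the test, with a median log2 fold change of 0.63. BST2 (tetherin, which holds budding viruses at the cell surface; chr19:17402939-17405648) had the largest rise of any gene with a mean of at least 5 CPM, from 0.303, 0.284 and 0.480 to 18.2, 19.3 and 18.2 CPM (log2 fold change 5.65, SE 0.239, adjusted p = 8.2e-13). OAS3, a sensor of double-stranded RNA, went from 0.789, 1.70 and 2.02 to 16.0, 17.9 and 15.8 CPM (log2 fold change 3.42, SE 0.192, adjusted p = 4.3e-11). MX1, a GTPase that blocks influenza virus, went from 0.607, 0.454 and 0.336 to 3.14, 3.34 and 3.45 CPM (log2 fold change 2.83, SE 0.273, adjusted p = 6.8e-08). PARP14, a mono-ADP-ribosyltransferase, went from 6.73, 10.5 and 9.12 to 30.8, 31.0 and 29.0 CPM (log2 fold change 1.78, SE 0.118, adjusted p = 4.6e-10). TRIM22 (3.57 ± 0.547) and IFIT2 (2.36 ± 0.466) rose from means of 0.175 and 0.244 CPM. The antigen presentation genes HLA-B (0.58 ± 0.0923) and TAP1 (0.78 ± 0.0973) rose less, and their partner B2M was at 192 ± 15.6 CPM in adherent and 198 ± 4.16 CPM in suspension culture (log2 fold change 0.047, SE 0.0718, adjusted p = 0.6). Of the factors that bind their promoters, IRF7 (-0.13 ± 0.232, adjusted p = 0.66) did not pass the test, while its relative IRF5 rose (2.96 ± 0.161), as given above. IRF9, a DNA-binding subunit of the factor that interferon activates, was the 1 member that fell (-0.78 ± 0.280), a call that was lost without adherent replicate 1 or 3 or suspension replicate 2 or 3, at -0.76, -0.73, -0.79 and -0.72.

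The interferon-stimulated response element (ISRE) that IRF9 and its relatives bind was looked for as 2 GAAA blocks with any 2 bases between them, on both strands, from 250 bases before to 50 after the listed starts in RefSeq promoters (GRCh38.p14). This motif was chosen after the values were seen. It was held by 19 of the 25 measured members with a listed promoter (76.0%), against 4.38% of all 27305 genes with one. Of the 19 holders, 12 rose and 7 did not pass the test, and of the 6 others 3 rose. Over all genes it was held by 3.99% of the promoters of genes that rose and by 3.63% of those that fell. The windows of the 4 holders with the largest rises, leaving out the IFITM genes, whose reads close copies can share, are shown 5′ to 3′ along the gene's strand with the matches in capitals, since most of the list holds this motif:
BST2: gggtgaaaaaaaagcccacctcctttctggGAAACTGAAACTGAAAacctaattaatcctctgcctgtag
OAS3: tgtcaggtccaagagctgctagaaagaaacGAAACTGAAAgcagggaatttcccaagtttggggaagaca
MX1: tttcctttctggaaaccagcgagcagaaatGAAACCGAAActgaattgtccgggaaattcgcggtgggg
PARP14: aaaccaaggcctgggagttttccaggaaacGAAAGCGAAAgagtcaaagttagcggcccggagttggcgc
They lie at chr19:17405721-17405790 on the minus strand (BST2), chr12:112938301-112938370 on the plus strand (OAS3), chr21:41420539-41420607 on the plus strand (MX1) and chr3:122680780-122680849 on the plus strand (PARP14). In BST2 the 2 matches overlap, so that 3 GAAA blocks stand in a row. The OAS3 window shows 1 of its 2 matches.

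Genes of the NF-kB pathway, which drives inflammatory signalling, also rose. Of 18 measured members, 11 rose and 1 fell, with a median of 1.03. RELB rose from 1.82, 1.48 and 2.16 to 9.63, 9.60 and 9.88 CPM (log2 fold change 2.40, SE 0.171, adjusted p = 1.1e-09). The cytokine LIF rose from 2.49, 1.87 and 2.45 to 13.5, 10.5 and 12.2 CPM (log2 fold change 2.40, SE 0.166, adjusted p = 7.2e-10), and neither gene's groups overlapped. NFKB2, the partner of RELB in the alternative pathway (1.05 ± 0.0809), BCL3 (1.51 ± 0.248) and the cytokine IL32 (1.49 ± 0.189) also rose. The fall was in NFKBIA, the inhibitor that NF-kB itself induces (-0.60 ± 0.120), while NFKB1 (-0.13 ± 0.0823, adjusted p = 0.2) and TNFAIP3 (0.29 ± 0.126, adjusted p = 0.061) did not pass the test.

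Genes of cholesterol synthesis rose almost as a whole. When a cell is short of sterol, the factor SREBP2 (gene SREBF2) moves to the nucleus and raises the enzymes of the pathway. Of 26 measured genes, 22 rose, 2 fell and 2 did not pass the test, and the median log2 fold change was 0.99. HMGCS1, an early enzyme of the pathway, went from 154, 209 and 166 to 807, 761 and 773 CPM (log2 fold change 2.15, SE 0.0925, adjusted p = 1.1e-12). INSIG1, which holds SREBP2 back when sterol is plentiful, went from 183, 175 and 172 to 664, 678 and 673 CPM (log2 fold change 1.93, SE 0.0615, adjusted p = 1.7e-14). IDI1, an isomerase of the pathway, went from 170.0, 168 and 132 to 529, 518 and 548 CPM (log2 fold change 1.76, SE 0.0851, adjusted p = 5.6e-12). SREBF2 rose from 179.5 ± 10.5 to 363 ± 6.13 CPM (log2 fold change 1.02, SE 0.0626, adjusted p = 1.6e-10). The groups did not overlap for any of these 4 genes. The 2 that fell were LBR (-0.30 ± 0.0611), which is also a lamin receptor, and SC5D (-0.27 ± 0.0759).

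The sterol regulatory element was looked for as TCACNCCAC in the same windows, on both strands. Of the 19 measured members with a listed promoter, 1 held it, SREBF2 itself, against 1.39% of all genes with one. It is shown with the match in capitals, at chr22:41832942-41833010 on the plus strand:
SREBF2: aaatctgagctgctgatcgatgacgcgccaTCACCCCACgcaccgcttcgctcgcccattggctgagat

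Fatty acid genes rose more often than they fell. Of 20 measured, 13 rose and 3 fell, with a median of 0.26. The desaturases FADS2, from 53.3, 56.3 and 65.3 to 200.1, 206 and 200.1 CPM (log2 fold change 1.79, SE 0.0721, adjusted p = 4.1e-13), and FADS1 (1.19 ± 0.0620), which make polyunsaturated fatty acids, and the acetate-using enzyme ACSS2 (1.53 ± 0.0912) rose most clearly. Fatty acid synthase (FASN), the enzyme that builds palmitate, fell from 1544 ± 287 to 1153 ± 67.5 CPM (log2 fold change -0.42, SE 0.102, adjusted p = 0.0017). Its regulator SREBF1 fell from 55.3 ± 10.9 to 34.8 ± 1.29 CPM (log2 fold change -0.67, SE 0.108, adjusted p = 3.5e-05). Of the genes of fat burning, 13 of 22 rose and 1 fell, with a median of 0.35.

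The arrestin family genes that the glucose sensor MondoA controls rose strongly. TXNIP, which binds thioredoxin and limits glucose uptake, went from 10.6, 15.7 and 11.8 to 130.3, 134 and 125 CPM (log2 fold change 3.36, SE 0.107, adjusted p = 1.7e-14). Its relative ARRDC4 went from 37.5, 47.1 and 37.0 to 189.7, 181 and 189 CPM (log2 fold change 2.20, SE 0.0847, adjusted p = 2.2e-13). ARRDC3 (1.57 ± 0.107), another relative, rose as well. They belong to a list of insulin, IGF and FOXO genes in which 10 of 27 rose and 13 fell, with a median of -0.11. Of the fasting genes in it, PDK4, which turns off glucose oxidation, rose from 4.33 ± 1.23 to 14.6 ± 0.855 CPM (log2 fold change 1.77, SE 0.164, adjusted p = 4.1e-08) and PIK3IP1, a brake on PI3 kinase, by 1.94 ± 0.201, while the receptors IGF1R (-0.48 ± 0.0732) and IGF2R (-0.53 ± 0.0827) and the binding protein IGFBP5 (-0.87 ± 0.0711) fell. Glycolysis genes split, with 8 of 24 higher and 11 lower.

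Targets of p53, the factor that answers DNA damage and other stress, rose with few exceptions. Of 27 measured genes, 25 rose and 2 did not pass the test, and the median log2 fold change was 0.77. CDKN1A (p21), an inhibitor of cyclin-dependent kinases, went from 57.5, 53.1 and 76.1 to 264, 279.8 and 267 CPM (log2 fold change 2.11, SE 0.0990, adjusted p = 3.8e-12). GDF15, a stress cytokine, went from 0.789, 0.908 and 0.720 to 7.56, 6.97 and 6.495 CPM (log2 fold change 3.12, SE 0.214, adjusted p = 7.1e-10). FDXR, a mitochondrial reductase, went from 13.0, 18.1 and 22.4 to 59.3, 55.8 and 57.2 CPM (log2 fold change 1.68, SE 0.132, adjusted p = 4.0e-09). The death receptor FAS (1.37 ± 0.122) and the repair genes DDB2 (1.39 ± 0.0855) and XPC (1.22 ± 0.0760) were more than 2-fold higher, whereas MDM2, which removes p53, rose by 0.45 ± 0.0767 and BAX by 0.33 ± 0.102. HEK293 cells carry adenovirus E1 genes, whose products bind p53.

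Genes of ribosome biogenesis fell, most of them by less than 2-fold. Of 28 measured, 26 fell, 2 of these by at least 2-fold, and 2 did not pass the test, with a median of -0.53. The nucleolar proteins NCL, from 1723, 1913 and 1672 to 1202, 1267 and 1254 CPM (log2 fold change -0.51, SE 0.0675, adjusted p = 3.5e-06), and NPM1 (-0.49 ± 0.0686), the snoRNP proteins NOP56 (-0.64 ± 0.0578) and NOP58 (-0.69 ± 0.0734) and the RNA polymerase I subunit POLR1A (-0.50 ± 0.0761) fell, and fibrillarin (FBL, -0.06 ± 0.0669, adjusted p = 0.46) did not pass the test. MYC, which drives many of these genes, went from 182, 157 and 173 to 103, 109 and 104 CPM (log2 fold change -0.70, SE 0.0722, adjusted p = 1.7e-07). Of the ribosomal protein genes, 22 of 52 rose and 1 fell, with a median of 0.18; the count of rises was 34 without adherent replicate 3 and 16 without adherent replicate 2 or suspension replicate 2. Reads of ribosomal protein genes can be shared with their pseudogenes and are uncertain for single members. Of 31 proteasome genes 20 fell and 2 rose (median -0.30); the 2 that rose, PSMB9 (1.27 ± 0.366) and PSME1 (0.76 ± 0.0886), belong to the immune form that interferon raises.

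Of the chaperone and replication genes, more fell than rose. Of 21 cytosolic heat shock genes 12 fell and 3 rose (median -0.29), with HSP90AA1 at -0.57 ± 0.0745 and HSPA8 at -0.54 ± 0.0704. The small heat shock protein HSPB1 rose, from 26.9, 21.5 and 36.1 to 80.2, 90.2 and 82.8 CPM (log2 fold change 1.58, SE 0.132, adjusted p = 9.9e-09). Of 42 DNA replication genes 22 fell and 4 rose (median -0.23), each by less than 2-fold; thymidine kinase (TK1, -0.84 ± 0.0968), UHRF1 (-0.72 ± 0.0716) and the helicase subunit MCM5 (-0.53 ± 0.0653) fell and thymidylate synthase (TYMS, 0.68 ± 0.0773) rose. Mitosis genes were split, with 12 of 35 lower and 8 higher (median -0.10), among them CDK1 (0.58 ± 0.0696) on the higher side and FOXM1 (-0.47 ± 0.0664) on the lower. Cyclin D1 (CCND1) fell from 160.4 ± 4.20 to 96.3 ± 2.16 CPM (log2 fold change -0.74, SE 0.0609, adjusted p = 8.4e-09).

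**Figure D3:**
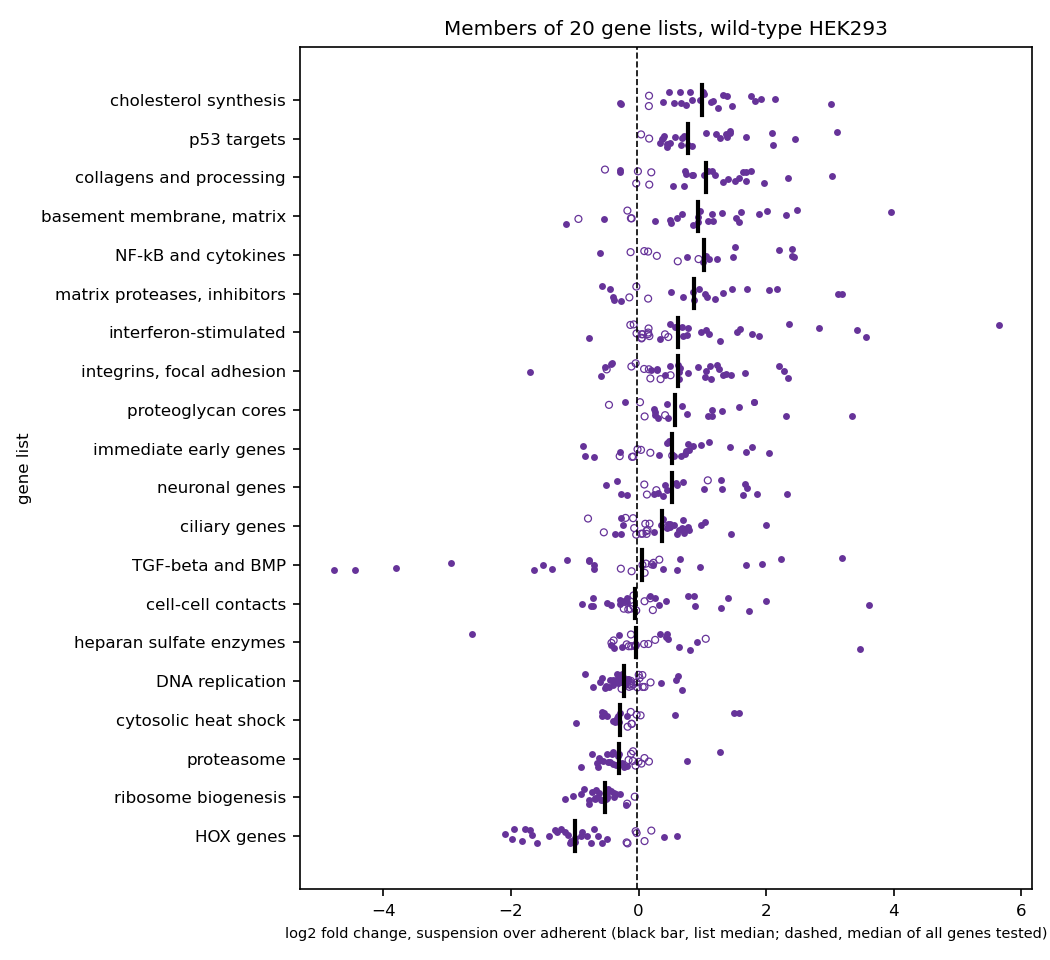
Log2 fold change of suspension over adherent culture (x axis) of each measured member of 20 gene lists (rows), with a black bar at the list's median and a dashed line at the median of all genes tested, -0.02. Filled points passed the test. Cholesterol, p53, collagen and NF-kB lists lie mostly to the right of 0 and ribosome biogenesis, HOX and proteasome lists to the left.

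Genes of the early response to growth factors were partly higher. Of 27 measured immediate early genes 16 rose and 4 fell (median 0.53). EGR1 went from 10.3, 8.40 and 9.07 to 35.8, 42.0 and 36.4 CPM (log2 fold change 2.04, SE 0.120, adjusted p = 8.1e-11), FOSL1 rose by 1.77 ± 0.163 and JUN by 0.75 ± 0.0603, and FOSB fell (-0.88 ± 0.237). Of 19 feedback genes of the receptor kinase and ERK pathway 9 rose and 5 fell: ETV4 rose from 14.2, 14.8 and 16.5 to 63.7, 65.3 and 59.9 CPM (log2 fold change 2.05, SE 0.0815, adjusted p = 3.4e-13), SPRY4 by 1.18 ± 0.116 and the phosphatase DUSP5 fell (-0.97 ± 0.0941), while DUSP6 was at 0.04 ± 0.140 with an adjusted p of 0.83.

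The genes of extracellular matrix were higher in the cells grown without a surface. Of 28 measured collagen and collagen-processing genes, 21 rose and 2 fell, with a median log2 fold change of 1.06. COL2A1, the collagen of cartilage, went from 73.3, 76.1 and 86.8 to 228, 245 and 228 CPM (log2 fold change 1.57, SE 0.0746, adjusted p = 4.6e-12). COL12A1 went from 8.43, 18.0 and 9.46 to 46.7, 45.3 and 48.5 CPM (log2 fold change 1.97, SE 0.175, adjusted p = 2.2e-08). COL4A6, a basement membrane chain, went from 29.8, 29.6 and 30.9 to 95.2, 93.2 and 103 CPM (log2 fold change 1.68, SE 0.0731, adjusted p = 1.2e-12). The crosslinking enzymes LOXL1 (2.35 ± 0.134) and LOXL4 (3.03 ± 0.272) rose, whereas COL1A1 was at 17.2 ± 2.28 CPM in adherent and 17.1 ± 0.808 CPM in suspension. Of 27 genes of basement membrane and other matrix, 21 rose and 2 fell (median 0.94). Lumican (LUM) went from 0.728, 0.625 and 0.576 to 9.07, 9.89 and 11.3 CPM (log2 fold change 3.96, SE 0.208, adjusted p = 1.8e-11). SPARC, a collagen-binding glycoprotein, went from 12.5, 13.1 and 12.7 to 70.4, 74.7 and 68.5 CPM (log2 fold change 2.48, SE 0.0888, adjusted p = 8.0e-14). Tenascin C (TNC) went from 22.3, 25.5 and 25.4 to 121, 125 and 117 CPM (log2 fold change 2.31, SE 0.0761, adjusted p = 2.6e-14). FBLN1 went from 23.5, 20.7 and 23.3 to 94.3, 93.7 and 85.5 CPM (log2 fold change 2.02, SE 0.0881, adjusted p = 1.3e-12). Fibronectin (FN1) was an exception and fell from 112 ± 13.4 to 77.3 ± 0.437 CPM (log2 fold change -0.54, SE 0.0828, adjusted p = 2.0e-05), as did EMILIN2 (-1.14 ± 0.0888).

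Enzymes that cut matrix rose with it. Of 23 measured proteases and inhibitors 15 rose and 5 fell (median 0.88): the metalloproteinases MMP14 (2.17 ± 0.169) and MMP2 (2.04 ± 0.268), the urokinase PLAU (3.13 ± 0.293) and the inhibitors TIMP1 (1.07 ± 0.0828) and TIMP3 (1.32 ± 0.0646) were more than 2-fold higher. HTRA1, a secreted serine protease, went from 1.46, 1.93 and 1.92 to 27.8, 31.2 and 29.6 CPM (log2 fold change 4.05, SE 0.142, adjusted p = 6.7e-14).

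Proteoglycan cores, the proteins that carry heparan or chondroitin sulfate, rose while the enzymes that build heparan sulfate did not move together. Of 22 measured cores 17 rose and 1 fell (median 0.57). CD44, the hyaluronan receptor, went from 1.76, 3.92 and 4.08 to 32.1, 35.1 and 34.1 CPM (log2 fold change 3.35, SE 0.179, adjusted p = 2.4e-11). Syndecan 3 (SDC3) went from 15.8, 16.4 and 25.6 to 67.2, 67.2 and 70.8 CPM (log2 fold change 1.82, SE 0.130, adjusted p = 1.1e-09). Syndecan 1 (SDC1) went from 20.02, 17.8 and 26.5 to 64.1, 64.8 and 63.8 CPM (log2 fold change 1.58, SE 0.105, adjusted p = 4.8e-10). Of 26 measured heparan sulfate enzymes 8 rose, 5 fell and 13 did not pass the test (median -0.046). At the 2 ends, XYLT1, which starts chains on the core protein, went from 19.3, 20.3 and 21.5 to 4.09, 2.93 and 2.90 CPM (log2 fold change -2.61, SE 0.144, adjusted p = 3.3e-11). SULF1, which strips 6-O-sulfate outside the cell, went from 2.31, 3.63 and 1.34 to 25.6, 26.2 and 27.5 CPM (log2 fold change 3.46, SE 0.189, adjusted p = 3.0e-11). The second initiating enzyme, XYLT2, rose by 0.46 ± 0.0958, the sulfatase SULF2 by 0.64 ± 0.0733 and EXT2, the partner of EXT1 in chain growth, by 0.43 ± 0.0717, and the sulfotransferase NDST1 fell (-0.38 ± 0.0740).

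Receptors and plaque proteins of cell-matrix contacts rose more often than they fell. Of 37 measured integrins and focal adhesion genes 24 rose and 5 fell (median 0.62). ITGA9 (2.34 ± 0.223), ITGB4 (2.20 ± 0.249) and ITGA3 (1.38 ± 0.0973) rose, and the plaque protein vinculin (VCL) rose from 178 ± 20.8 to 279.8 ± 7.35 CPM (log2 fold change 0.65, SE 0.0742, adjusted p = 5.6e-07). ITGA8, an integrin of developing kidney, fell from 32.3, 31.6 and 29.6 to 9.30, 8.90 and 10.4 CPM (log2 fold change -1.71, SE 0.108, adjusted p = 2.2e-10). ITGAV also fell (-0.60 ± 0.0676). Paxillin (PXN, -0.046 ± 0.0813, adjusted p = 0.65) did not pass the test.

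Genes of cell-cell contacts moved both ways. Of 32 measured cadherins, catenins and plaque genes 12 rose and 11 fell (median -0.059). P-cadherin (CDH3) went from 1.09, 1.36 and 0.768 to 11.8, 13.5 and 13.8 CPM (log2 fold change 3.61, SE 0.240, adjusted p = 4.6e-10). E-cadherin (CDH1) went from 3.76, 5.28 and 4.99 to 15.6, 14.4 and 16.8 CPM (log2 fold change 1.73, SE 0.127, adjusted p = 1.7e-09). N-cadherin (CDH2), one of the line's markers, fell by a small amount (-0.23 ± 0.0635), as did beta-catenin (CTNNB1, -0.49 ± 0.0612), occludin (OCLN, -0.72 ± 0.0737) and desmoplakin (DSP, -0.74 ± 0.0916). NECTIN4, a junction protein known as a measles virus receptor, went from 1.09, 1.48 and 1.87 to 20.5, 22.3 and 23.3 CPM (log2 fold change 3.87, SE 0.181, adjusted p = 3.8e-12).

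Genes that answer to cell spreading rose more often than they fell in 1 list and were split in another. Of 33 measured targets of SRF, the factor that senses free actin, 15 rose and 5 fell (median 0.091), with 3 falls without suspension replicate 1; ACTA2, the smooth muscle actin, went from 2.97, 1.76 and 1.82 to 22.2, 23.9 and 23.4 CPM (log2 fold change 3.42, SE 0.166, adjusted p = 6.3e-12). Beta-actin (ACTB) was at 1824 ± 116 CPM in adherent and 1754 ± 57.8 CPM in suspension culture (log2 fold change -0.057, SE 0.0729, adjusted p = 0.53). Of 24 targets of YAP and TAZ, the coactivators that leave the nucleus when cells round up, 8 rose and 9 fell (median 0.05). At least 2-fold were 6 of the rises and none of the falls. Of the best-known YAP and TAZ targets, ANKRD1 was lower (log2 fold change -0.87, SE 0.290, adjusted p = 0.015). This call was lost without adherent replicate 2 (-0.59) or suspension replicate 1 (-0.77). CTGF (now CCN2) was higher by 0.30 ± 0.125 with an adjusted p of 0.048, a call lost without adherent replicate 2 or 3 or suspension replicate 2 or 3, at 0.23 to 0.30.

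Genes linked to entry of adeno-associated virus, a gene therapy vector often made in this line, were near the background. Of 26 measured factors 5 rose and 9 fell (median -0.05). The virus receptor KIAA0319L rose by 0.41 ± 0.0641, EGFR from 23.1 ± 2.82 to 59.6 ± 1.97 CPM (log2 fold change 1.37, SE 0.0907, adjusted p = 4.5e-10). FGFR1 (-0.29 ± 0.0767), MET (-0.41 ± 0.0717) and the protease FURIN (-0.91 ± 0.0975) fell.

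Genes of neurons, some of which this line is known to express, and of the cilium rose more often than they fell. Of 24 measured neuronal genes 16 rose and 4 fell (median 0.52): the microtubule proteins MAPT, from 11.1, 11.4 and 11.8 to 36.8, 37.9 and 37.5 CPM (log2 fold change 1.71, SE 0.0873, adjusted p = 1.3e-11), and MAP2 (2.32 ± 0.196) and the vesicle protein SYT1 (1.68 ± 0.121) rose, and NCAM1 fell (-0.27 ± 0.0858). Of 38 ciliary genes 20 rose and 4 fell (median 0.37), with KIF17 (1.99 ± 0.172), TCTN1 (1.44 ± 0.101) and BBS4 (1.05 ± 0.0888) highest and the motor subunit KIF3B (-0.37 ± 0.0656) lowest of those that passed the test.

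Several of the largest rises fell outside these lists. CGA, the alpha subunit shared by the pituitary and placental glycoprotein hormones, went from 7.77, 5.39 and 5.57 to 109, 117 and 116 CPM (log2 fold change 4.20, SE 0.110, adjusted p = 1.6e-15). EPS8L2, an actin regulator, went from 2.06, 2.04 and 3.17 to 64.3, 57.4 and 57.5 CPM (log2 fold change 4.60, SE 0.143, adjusted p = 1.4e-14). INPP5D (SHIP1), a lipid phosphatase best known from blood cells, went from 1.82, 2.16 and 2.21 to 44.6, 41.8 and 45.3 CPM (log2 fold change 4.40, SE 0.146, adjusted p = 2.6e-14). The groups lay far apart in all 3. TSPAN11 (4.36 ± 0.202), the microtubule protein MAP6 (4.09 ± 0.195), the thrombospondin THBS4 (3.99 ± 0.204), VSTM2B (3.95 ± 0.194), the ubiquitin-like conjugating enzyme UBE2L6 (3.85 ± 0.169), RINL (3.61 ± 0.134) and FEZ1 (3.47 ± 0.199) complete the 15 protein-coding genes with the largest rises. Among the falls, DOK3 (-2.31 ± 0.175), an adaptor of immune receptors, SAMD11 (-2.29 ± 0.124), the carbonic anhydrase CA2, from 34.7, 31.6 and 32.6 to 6.67, 6.91 and 7.60 CPM (log2 fold change -2.23, SE 0.128, adjusted p = 6.1e-11), PRR22 (-2.21 ± 0.239), FAM222A (-2.07 ± 0.146), RAI2 (-2.07 ± 0.122) and SYTL5 (-1.91 ± 0.117) complete the 15 largest.

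Outside protein-coding genes, the largest rises with a mean of at least 5 CPM were AL365181.3 (2.17 ± 0.182), AC144652.1 (1.77 ± 0.193), AC116614.1 (1.76 ± 0.196), FZD10-DT (1.76 ± 0.150) and LINC01694 (1.62 ± 0.160). LINC02593, a neighbour on chromosome 1 of the falling SAMD11, went from 55.3, 43.8 and 71.1 to 13.2, 10.9 and 11.7 CPM (log2 fold change -2.25, SE 0.160, adjusted p = 1.0e-09). RN7SL2, an RNA of the signal recognition particle, was at 63.4, 26.9 and 571 CPM in adherent and 9.02, 23.0 and 9.67 CPM in suspension, so that the third adherent library alone held most of the reads (log2 fold change -3.99, SE 0.749, adjusted p = 1.7e-04, with a log2 fold change of -1.69 without that library). The mitochondrial tRNA MT-TH was also highest in that library, at 12.3, 14.1 and 29.2 and 5.77, 2.63 and 3.39 CPM.

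Some genes were all but silent in adherent culture. Of the genes tested, 15 had a mean below 0.1 CPM in adherent and of at least 1 CPM in suspension, and none went the other way. PTPN22, a phosphatase of lymphocytes, had 4 reads in all adherent libraries and 148 in suspension, a ratio of 41.1 after scaling (95% interval 15.7 to 153, counting error only). DGCR6 had 2 and 151 reads, which its near-identical neighbour DGCR6L makes uncertain, the fibrillin FBN3 3 and 146 reads, a ratio of 54.1 (18.2 to 265), the dynein DNAH5 5 and 96, and KANK4 2 and 69. APOBEC3H, a cytidine deaminase that restricts retroviruses, had no read in adherent culture and 67 in suspension, and CASP4, an inflammatory caspase, none and 51. Against a limit of 3 reads over the adherent group they were at least 24.8-fold and at least 18.9-fold higher, and the lower ends of the 95% counting intervals of the ratio were 19.6 and 14.8. HCLS1, a lymphocyte adaptor (5 and 64 reads), and the transcripts AC068057.1 (5 and 67), AL354719.2 (4 and 58) and AL035458.2 (3 and 60) complete the 10 with the highest suspension level. As the adherent reads were so few, leaving out adherent replicate 3 moved the fitted log2 fold change from 6.11 to 8.63 for DGCR6, from 5.02 to 7.54 for KANK4, from 5.23 to 4.59 for PTPN22, from 4.30 to 3.66 for DNAH5, from 3.79 to 3.15 for AC068057.1 and from 4.29 to 5.04 for AL035458.2. Leaving out adherent replicate 2 moved PTPN22 to 8.65 and DNAH5 to 5.82, and leaving out adherent replicate 1 moved AC068057.1 to 4.52 and AL354719.2 from 3.90 to 5.17.

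The most abundant transcripts per length, by the authors' FPKM, were mitochondrial in both cultures. The 10 genes with the highest mean FPKM in adherent culture were all mitochondrially encoded, and in suspension the elongation factor EEF1A1 stood among them in place of 1 mitochondrial gene. EEF1A1 rose from 10535 ± 739 to 14401 ± 815 CPM (log2 fold change 0.45, SE 0.0840, adjusted p = 1.5e-04). MT-CO1, at the top of both, was at 16789, 18894 and 16272 CPM in adherent and 25669, 17772 and 20793 CPM in suspension, and the groups overlapped (log2 fold change 0.31, SE 0.126, adjusted p = 0.046); its call was lost without adherent replicate 1 or 3 or suspension replicate 1 or 3, at 0.28, 0.26, 0.15 and 0.32. MT-CO2 rose more clearly (0.65 ± 0.0836), and so did the ribosomal RNA MT-RNR2 (0.84 ± 0.0960). By library, mitochondrially encoded protein genes took 5.07, 5.72 and 4.83% of reads in adherent and 7.27, 5.54 and 6.34% in suspension (exact two-sided permutation test, p = 0.2). Ribosomal protein genes took 5.88, 5.22 and 6.48% and 6.79, 7.27 and 7.03%, and the 100 most abundant genes 18.3, 19.0 and 18.3% and 21.4, 20.2 and 20.8%; neither pair of groups overlapped, and the exact permutation p was 0.1 for both, the smallest that 3 against 3 allows.

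The same change of culture was made with the EXT1 knockdown line, in libraries that the wild-type contrast does not use. In that line 9534 of the 17115 genes (55.7%) were called, as many as in wild type, but not all the same ones. Of the 4735 genes higher in wild-type suspension, 3015 (63.7%) were also higher in the knockdown line, where they are 65.8% of its 4579 rises, and of the 4799 lower genes 3095 (64.5%) were lower there too, 62.5% of its 4955 falls. In opposite directions 439 genes were called. The BMP targets fell in both lines. ID3 changed by -4.78 in wild type and -4.76 in the knockdown line (difference 0.023, SE 0.281, adjusted p = 0.96), ID1 by -4.45 and -4.77 (difference -0.32, SE 0.277, adjusted p = 0.43) and SMAD6 by -3.80 and -3.97 (difference -0.17, SE 0.165, adjusted p = 0.49). ID2 fell less in the knockdown line, changing by -2.94 in wild type and -2.03 there (difference 0.91, SE 0.138, adjusted p = 1.2e-04), and SMAD7 fell more, changing by -1.64 and -2.51 (difference -0.87, SE 0.152, adjusted p = 4.5e-04). The 35 measured HOX genes had a median of -0.996 in wild type and -0.75 in the knockdown line. Clusters A and B had medians of -1.113 and -0.99 in wild type and -0.967 and -0.943 in the knockdown line. Clusters C and D had medians of -0.741 and -0.851 in wild type and -0.289 and -0.207 in the knockdown line. The chromosomes of clusters A to D (7, 17, 12 and 2) had medians of 0.05, -0.356, 0.055 and 0.125 in the knockdown line. The same medians in wild type, over genes with a mean of at least 5 CPM, were -0.035, -0.117, -0.073 and -0.061. Their part in the cluster values was not tested. The cholesterol genes had medians of 0.99 in wild type and 0.55 in the knockdown line.

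**Figure D4:**
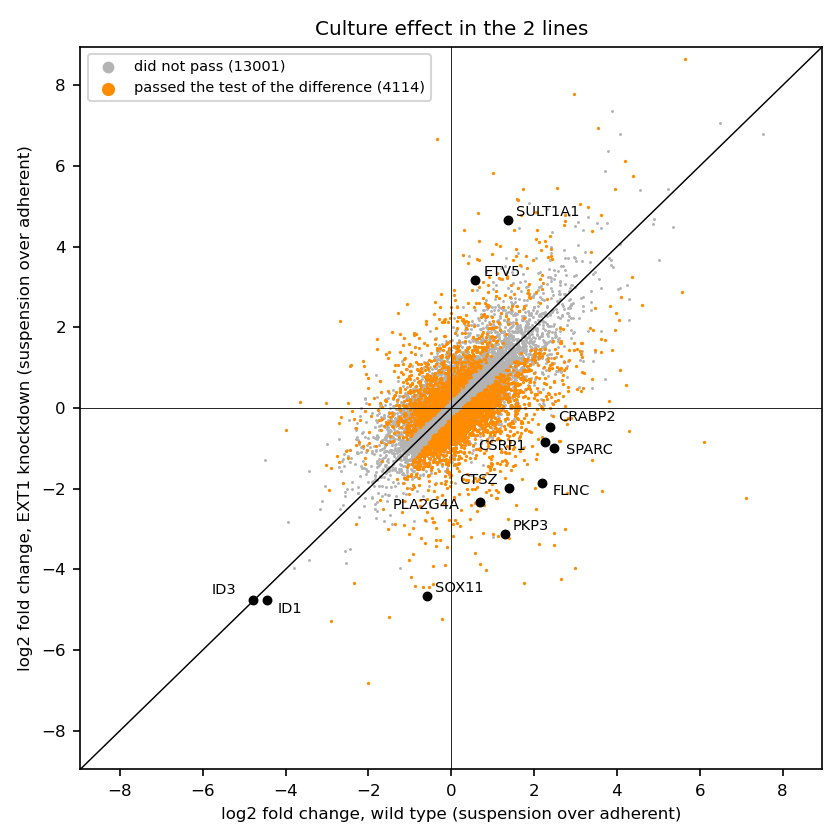
Log2 fold change of suspension over adherent culture in the EXT1 knockdown line (y axis) against that in wild type (x axis) for each gene tested. Orange points passed the test of the difference between the lines (4114 genes); the diagonal marks equal change. The 10 wild-type genes with the smallest p of that difference are named, most of them below the diagonal, as are ID3 and ID1 on it.

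The difference between the 2 culture effects was itself tested and called for 4114 genes (24.0%), of which 2803 were among the 9534 changed in wild type. The 10 with the smallest p included genes of matrix and cytoskeleton that rose in wild type and fell in the knockdown line. SPARC changed by 2.48 in wild type and -0.98 in the knockdown line (adjusted p of the difference 5.9e-13), the muscle filamin FLNC by 2.19 and -1.86 (4.8e-13), the lysosomal protease CTSZ by 1.39 and -1.99 (4.8e-13) and the desmosomal PKP3 by 1.29 and -3.13 (6.3e-12). CSRP1 (2.26 and -0.83), the retinoid binder CRABP2 (2.38 and -0.47) and the phospholipase PLA2G4A (0.70 and -2.34) went the same way. SOX11 fell a little in wild type (-0.59) and far more in the knockdown line (-4.67), and ETV5 (0.58 and 3.18) and SULT1A1 (1.37 and 4.66, with reads that close copies can share) rose more there. In the knockdown line whole chromosomes also shifted, with medians from -0.40 on chromosome 14 to 0.13 on chromosome 2 against -0.23 to 0.13 in wild type, and with chromosome medians removed the count of differences fell to 2610.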

How the data were processed

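PolyA RNA of 12 HEK293 libraries was sequenced. The authors deposited read counts per gene, and FPKM values beside them. Per the submitters' processing notes, HISAT2 and featureCounts 1.5.0 were used with GRCh38. The annotation release and strand setting are not stated by the labels or headers. Counts were tested in edgeR 4.0.16 (R 4.3.3) with TMM scaling, the filterByExpr filter (17115 of 58735 genes) and quasi-likelihood tests, with 1 mean per group over all 12 libraries and Benjamini-Hochberg adjustment at 0.05. SE is the log2 fold change over the root of F. FPKM served for levels across genes and in limma 3.58.1 with pseudocounts of 1 and 0.1; DESeq2 1.42.0 and the other alternatives are given in the closing section.

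Named genes are the 15 largest changes each way with a mean of at least 5 CPM, 5 each way of other biotypes, 10 transcription factors each way and the leading and best-known members of each list; a few of these are not reported here. The gene lists and the comparison were chosen with earlier results of these data known, and some list members named for contrast were chosen after their values were seen. Tested on simulated counts of 16766 genes for the wild-type comparison, the fit recovered 63.6% of 1.5-fold, 77.3% of 2-fold and 94.3% of 4-fold changes. These were 35, 58 and 66 correct calls, beside 18 false ones among 16566 unchanged genes. Few genes were changed in the simulation, in wild-type suspension alone, whereas most were called in the data. These rates may therefore not carry over. Libraries held 13.9 to 21.4 M counted reads; intervals and limits cover counting error only, since reads carry no molecular identifiers.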

Additional observations from a re-analysis of the deposited data

Results flagged for a closer look

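The change with culture differed between the lines, by a test of the difference itself in edgeR with an adjusted p below 0.05, for 116 of the 246 genes named here, beside 24.0% of all genes tested. Each number in parentheses below is the log2 fold change in the EXT1 knockdown line minus that in wild type; it is a difference between changes, not between levels. The labels give each line 1 set of libraries per culture, so a difference between the lines cannot be told apart from one between their cultures. Whole chromosomes also differed. Chromosome 11, which holds EPS8L2, MAP6, UBE2L6 and FEZ1 among others, had medians of 0.128 in wild type and -0.365 in the knockdown line. These medians are over genes with a mean of at least 5 CPM. The part of such shifts in the differences below was not tested.

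For genes of matrix and cell contacts the difference was mostly below 0. Of those named as matrix or its enzymes, the differences were SPARC (-3.46), FBLN1 (-1.68), LUM (-2.02), COL2A1 (-1.46), COL1A1 (-0.84), THBS4 (-1.62), LOXL4 (-1.57), EMILIN2 (-1.17), FN1 (-0.49), HTRA1 (-1.87) and FBN3 (-2.69), with TNC (0.40) above 0. Receptors and junction genes gave PKP3 (-4.42), CDH3 (-2.21), CD44 (-1.36), ITGA3 (-0.86), ITGA8 (-0.57), CDH2 (-0.44), EGFR (-0.42) and TSPAN11 (-1.11). Genes of the cytoskeleton and its regulation gave FLNC (-4.05), CSRP1 (-3.09), MAP6 (-1.34), EPS8L2 (-2.05), VIM (-0.40) and CTGF (-1.09). Enzymes of heparan sulfate gave EXT2 (-0.96) and XYLT2 (-0.52) below and XYLT1 (0.76) and SULF2 (0.50) above 0.

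In the TGF-beta and BMP pathway the difference was GREM1 (-2.02), TGFB1 (-1.14), SMAD7 (-0.87) and BAMBI (-0.56), and ID2 (0.91) and HEY1 (-0.44). Among the named HOX genes and antisense transcripts the difference was above 0 for HOXB5 (1.11), HOXB6 (0.84), HOXB8 (0.88) and HOXA-AS3 (1.41) and below 0 for HOXA4 (-1.07), HOXB13 (-0.65) and HOXC10 (-0.75). This split is not that of the whole family. Most of the other HOX genes that passed this test fell less in the knockdown line than in wild type, mainly those of clusters C and D. Other transcription factors gave SOX11 (-4.09), IRF5 (-1.35), IRF7 (-1.22), EBF4 (-0.81), MEIS3 (-0.60), SREBF2 (-0.55) and NFKB1 (-0.48) below and ETV5 (2.60), ETV4 (2.15), EGR1 (0.83), FOSB (2.21) and NFKB2 (0.71) above 0. For the ERK feedback genes SPRY4 (2.84), DUSP6 (1.23) and DUSP5 (0.39) it was above 0.

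Of interferon-stimulated and antigen presentation genes, the difference was below 0 for PARP14 (-1.78), OAS3 (-1.48), MX1 (-1.64), UBE2L6 (-1.31), HLA-B (-0.51), TAP1 (-0.83) and PSME1 (-0.51) and above 0 for BST2 (3.01), as for the cytokines IL32 (2.19) and GDF15 (1.94). Lipid genes gave HMGCS1 (-0.77), INSIG1 (-0.48), SC5D (-0.86), FADS2 (-1.50), FADS1 (-0.94), FASN (-0.44) and ACSS2 (-0.38). Genes tied to growth gave NCL (0.38), NPM1 (0.43), NOP56 (0.38), NOP58 (0.69) and UHRF1 (0.43), and those tied to nutrients gave ARRDC3 (0.55), ARRDC4 (0.91), PDK4 (0.72) and IGFBP5 (-0.58). Carriers and lysosomal genes gave SLC1A3 (0.36), SLC3A2 (-0.98), SLC7A5 (0.43), TFRC (-0.45), LAMP1 (-0.39), GAA (-0.73) and CTSZ (-3.37). Signalling and neuronal genes gave WNT11 (-1.36), SLIT2 (-0.60), PLXNA4 (2.82), PIEZO2 (-1.11), SYT1 (-0.83), FEZ1 (-0.99), PLA2G4A (-3.04), INPP5D (1.36), DOK3 (1.40) and ANXA1 (0.47).

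The remaining differences were SULT1A1 (3.29), CRABP2 (-2.85), CGA (1.93), DDB2 (-0.78), AL365181.3 (1.75), RINL (1.17), VSTM2B (1.49), SAMD11 (-0.59), FAM222A (0.68), AC116614.1 (-0.85) and FZD10-DT (0.77). Values of CASP4 (-9.35) and DGCR6 (-6.96) rest on at most 2 adherent wild-type reads and are no bound. FBN3 had 3 such reads, and BST2 was at 0, 0 and 0.285 CPM in the adherent knockdown libraries, so their differences are uncertain in size. The genes RN7SL2 (3.45) and MT-TH (1.40) were highest in the third adherent wild-type library.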

How the results depend on the processing

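The number of genes changed with culture in wild type, 9534, lay between 8617 and 9509 under other scalings, filters, designs and tests: 9373 with library totals, 9509 with DESeq2's size factors, 9453 without a filter, 9210 with a stricter one, 8617 with the 6 libraries alone, 9408 with chromosome medians removed, 9499 with limma-voom, 9128 and 9140 with limma on log2(FPKM + 1) and log2(FPKM + 0.1), and 9147 with DESeq2. Leaving out 1 library gave 8478 to 9644. With library totals 5217 genes rose and 4156 fell, and with chromosome medians removed 5154 and 4254. On log2(FPKM + 1), a scale that shrinks the change of low genes, 423 genes were at least 2-fold higher and 131 lower, against 1799 and 653. The difference between the lines was called for 2610 genes with chromosome medians removed, against 4114, and for 3142 to 5068 when 1 library was left out. HOX genes lower were 26 or 27 under each alternative. Replicate numbers did not pair the wild-type libraries: the deviations of libraries with the same number correlated at -0.158, -0.158 and -0.207, and the fit with a replicate block called 9480 genes. Of 228 named genes that passed the test, 223 kept their call under each of the 17 alternatives in which they were tested, and none changed sign. A gene that an alternative's filter left out was not counted as lost. CTGF, IRF9, ANKRD1 and MT-CO1 lost it as given above, CTGF and IRF9 also without a filter and with DESeq2, CTGF also with the replicate block, the 6 libraries alone and limma-voom, MT-CO1 also on both FPKM scales (0.30), and MT-CO2 only there (0.66); the cause was not tested. TNFAIP3 passed with library totals (0.34) or chromosome medians removed (0.33). Depth limits genes of a few reads, whose fitted folds depend on single libraries.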

Other observations

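The gene lists not described above gave the following counts. Of 41 nuclear genes of oxidative phosphorylation 8 rose and 15 fell, with a median log2 fold change of -0.12 and no change of 2-fold. Of 36 lysosome and autophagy genes 10 rose and 15 fell (median -0.15), with the membrane protein LAMP1 (-0.88 ± 0.0739, log2 fold change ± SE) and cathepsin A (CTSA, -1.07 ± 0.0912) lower and acid alpha-glucosidase (GAA, 1.35) higher. Of 20 tRNA synthetases 8 fell and 12 did not pass the test (median -0.061), with 4 rises without adherent replicate 2, and the valine enzyme VARS at -0.94 ± 0.0753. Of 23 hypoxia targets 6 rose and 7 fell (median 0.047), with the oxygen sensor EGLN3 at -0.81 ± 0.102. Of 21 genes of the pentose phosphate pathway and NRF2 response 6 rose and 7 fell (median 0.016), with 3 rises without suspension replicate 2. Of 27 chaperones of the endoplasmic reticulum 8 rose and 11 fell (median -0.15), with 5 rises without suspension replicate 2 or 3.

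Of 25 carriers of amino acids, glucose and nucleosides 5 rose and 9 fell (median -0.16). The glutamate carrier SLC1A3 went from 116, 124 and 111 CPM in adherent to 34.4, 37.2 and 38.6 CPM in suspension culture (log2 fold change -1.67, SE 0.0795, adjusted p = 4.6e-12), so that the groups did not overlap. Of 32 genes of the ATF4 response and of serine and folate use 7 rose and 9 fell (median -0.048): both chains of the large neutral amino acid carrier, SLC7A5 (-1.06 ± 0.0821) and SLC3A2 (-0.93 ± 0.120), fell, and the mitochondrial folate enzyme ALDH1L2 rose (2.54 ± 0.138). Of 17 genes of metal handling 2 rose and 8 fell (median -0.13), with 1 rise without adherent replicate 1 or any 1 suspension replicate. The zinc and iron carrier SLC39A14 was at -0.93 ± 0.0627 and the transferrin receptor TFRC at -0.57 ± 0.0610. Of 14 targets of the sterol receptor LXR and genes of lipid export 5 rose and 2 fell (median 0.31), with APOE, the apolipoprotein, at 1.43 ± 0.149.

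Among signalling genes, 13 of 34 axon guidance genes rose and 11 fell (median 0.021). The netrin receptor UNC5B (-1.40 ± 0.0960) and the guidance ligand SLIT2 (-0.84 ± 0.0687) were lower and the semaphorin receptors PLXNB2 (1.20 ± 0.0771) and PLXNA4 (2.04 ± 0.231) higher. Of 23 WNT genes 10 rose and 3 fell (median 0.21), with 6 rises without suspension replicate 3. WNT5A, a ligand of the branch that does not use beta-catenin, went from 53.8, 50.6 and 47.8 to 16.5, 16.0 and 15.2 CPM (log2 fold change -1.67, SE 0.0916, adjusted p = 3.1e-11), and WNT11 rose (2.36 ± 0.163). Of 20 Notch genes 7 rose and 2 fell (median 0.082), with 4 falls without adherent replicate 2. The falls were in NOTCH2 (-0.37 ± 0.0709) and in HEY1, a target shared with BMP signalling, which went from 70.4, 68.0 and 65.8 to 29.1, 25.7 and 27.5 CPM (log2 fold change -1.31, SE 0.0838, adjusted p = 2.6e-10). Of 34 receptors and channels 16 rose and 9 fell (median 0.36), with the stretch channel PIEZO2 at 1.38 ± 0.0971.

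The gene with the smallest p of all was ANXA1, a calcium-dependent membrane-binding protein, singled out after its values were seen. It went from 8.68, 8.91 and 8.55 to 93.2, 89.6 and 90.7 CPM (log2 fold change 3.39, SE 0.0801, adjusted p = 4.7e-16).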
